A study of Mus musculus with 40 samples.

Results

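Bone marrow of 5 DBA/2 mice taken 5 days after cyclophosphamide was compared with marrow of 5 untreated DBA/2 mice. DBA/2 is an inbred laboratory strain, and the treated mice had received 83 mg/kg of the drug. The comparison used 20 of the 40 arrays of the series and 10 of its 20 mice. They were found by the group, day and replicate numbers in the sample titles, and each mouse was hybridised on 2 arrays that were averaged first. The other 10 mice, 5 each at day 1 and day 2 after the same dose, entered the fit that estimates the spread and are used below only for the difference between day 5 and those days. All groups were whole marrow cells, and the sources used here give neither age nor sex. RNA of each mouse carried the Cy5 dye and was hybridised against 1 common reference pool in Cy3. The labels call this pool marrow of untreated mice, but its treatment field names cyclophosphamide. Since the pool is common to all arrays it cancels in a difference between groups.

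Cyclophosphamide is activated in the body to metabolites that cross-link DNA, and cells that divide fast, among them the precursors of blood cells, are most exposed. Marrow makes granulocytes, monocytes, red cells, platelets and B lymphocytes from dividing precursors. After damage by such a drug these lineages do not recover at one pace, and B lymphocytes are known to come back later than granulocytes and monocytes. Interferons, secreted in response to infection and also made at a low level in healthy tissue, keep a set of genes switched on in many of these cells.

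Features (genes, or probes without a gene symbol) needed values in 3 or more mice of each group, which left 5473, of which 4058 had a symbol. Values are log ratios to the pool, taken as log2 although the sources used here do not give the base (with natural logs the folds would be larger), differences are day 5 minus control in log2 units with the standard error of the limma fit, and a fold is 2 raised to the size of that difference. Feature by feature, 135 passed an adjusted p of 0.05 (2.47% of those tested), of which 45 were higher (0.822%) and 90 lower (1.64%) on day 5. At least 2-fold changes made up 5 of the rises and 27 of the falls. The median difference of all features was 0.01. In 112 of the 135 the 2 groups did not overlap, against 6.58% of all features tested. Leaving out 1 mouse at a time gave 22 to 55 rises and 71 to 108 falls, and the rises numbered 25 without control mouse 2, 22 without control mouse 5, 28 without day 5 mouse 3 and 26 without day 5 mouse 4. By the same fit 1099 of 5409 features (20.3%) differed between day 5 and day 2, and 1344 of 5350 (25.1%) between day 5 and day 1.

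**Figure D1:**
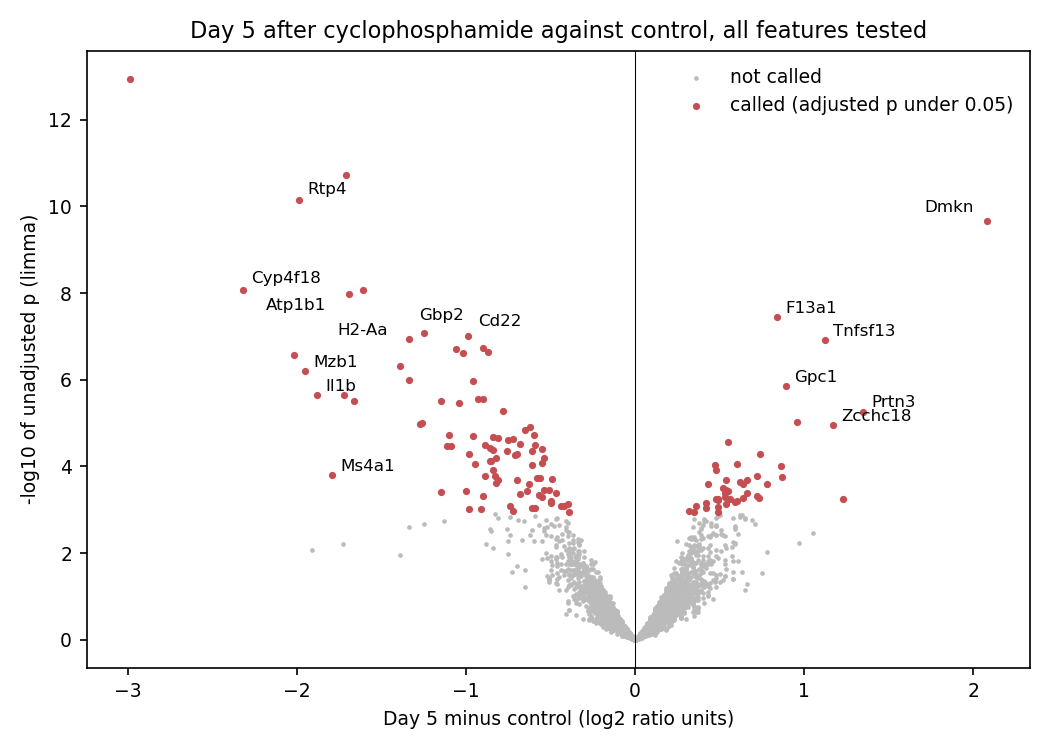
Each point is 1 of the 5473 features tested, with the day 5 minus control difference in log2 units on the x axis and -log10 of the unadjusted limma p on the y axis. Red points are the 135 features called at an adjusted p under 0.05, 90 of them on the left (lower on day 5) and 45 on the right.

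The mice were not equally well measured. Of 13443 probes, 4654 to 8284 had a value in a control mouse and 5045 to 7710 in a day 5 mouse. Control mouse 4 was least like its own group (mean correlation 0.23), and the 2 arrays of day 5 mouse 5 agreed least with each other (correlation 0.683). Some results that turn on either mouse are therefore also given without it. Fewer than 6000 probes were measured in 2 control and 4 day 5 mice. In a fit restricted to mice under this limit 83 features passed. That fit needed values in only 2 mice of each group, and day 1 and day 2 mice under the limit also set its spread. With the number of probes measured as a covariate 126 passed. Many defining genes of marrow cells had no usable value: Cd79a, Cd79b, S100a8, Slc4a1 and Mpo had a value in 0 control and 0 day 5 mice, so each lineage is described by the genes that were measured. In whole marrow, fewer cells of a type and less RNA per cell cannot be told apart.

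Genes that interferons induce were lower on day 5. Of 17 tested members of the list (57 genes, 40 on the array), 8 passed, all lower, 0 were higher, and all 17 differences lay below 0, from -1.99 to -0.04. The median of the list was -0.40, against 0.01 for all features, and it lay between -0.62 and -0.38 in all 24 alternative settings. In comparison, 1.64% of all features were called lower. Among the 2 control and 4 day 5 mice with under 6000 probes, 3 of 14 tested members were called, all lower.

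Rtp4, an interferon-induced protein that helps receptors reach the cell surface, stood at 0.78, 0.91, 0.69, 0.75 and 0.38 in the control mice and at -0.97, -1.12, -1.36, -1.99 and -0.98 on day 5. The groups were far apart and no mouse of either crossed 0. The difference was -1.99 ± 0.18 (3.96-fold lower, limma adjusted p = 1.3e-07). Ifi27l2a, another small interferon-induced protein, ranged from 0.65 to 1.40 in control mice and from -1.28 to -0.04 on day 5, which is 3.15-fold lower (difference -1.66 ± 0.27, adjusted p = 0.000617). Gbp2, a GTPase that attacks the compartments in which intracellular pathogens live, read 1.07, 0.50, 0.95, 0.65 and 0.47 in control mice and -0.34, -0.46, -0.59, -1.10 and -0.13 on day 5. Every day 5 mouse was below every control mouse, and the difference was -1.25 ± 0.16 (adjusted p = 5.02e-05).

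Irf9 binds DNA for the transcription factor complex that interferon switches on, and it was lower by -0.81 ± 0.15, without overlap in the 4 mice measured per group. Ifi47, a further interferon-induced GTPase, differed by -0.86 ± 0.17 and Oasl2, of the antiviral oligoadenylate synthetase family, by -0.68 ± 0.13, again without overlap. Psmb10, a subunit of the immunoproteasome, differed by -0.40 ± 0.10 (adjusted p = 0.0331), but its groups met at 0.38. The call was lost in 6 of 10 fits that left out a mouse, with adjusted p between 0.0138 and 0.0984 over the 10. Among the losses were the fits without control mouse 4 (adjusted p = 0.0856) and without day 5 mouse 5 (adjusted p = 0.0521). Members that did not pass included Mx2, an antiviral GTPase (-0.37 ± 0.11, adjusted p = 0.101), the RNA sensor Ifih1 (-0.27 ± 0.12, adjusted p = 0.373) and the GTPases Irgm1 (-0.14 ± 0.10) and Gbp3 (-0.04 ± 0.22). Outside the list, the guanylate-binding protein Gbp8 (-1.15 ± 0.19) and the interferon-induced GTPase Iigp1 (-1.04 ± 0.17) were lower too, and so was Il18bp, a secreted inhibitor of interleukin 18 (-0.75, called). In the other direction Ifitm2, also interferon-induced and outside the list, was higher (0.87 ± 0.20, adjusted p = 0.0129).

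Against day 2 rather than control, 7 of the 17 members were lower on day 5 and 0 higher, beside a background of 10.2% of features lower. For Rtp4 the step from day 2 to day 5 was -1.98 ± 0.18 (adjusted p = 9.69e-08), and its day 1 and day 2 levels had not passed against control (adjusted p = 0.129 and 0.996). Tap1, Irf9 and Psmb10 had already passed as lower on day 2 (differences from control of -0.67, -0.64 and -0.37), and for these 3 the step from day 2 to day 5 did not pass (adjusted p = 0.145, 0.473 and 0.875).

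The core letters of the interferon-stimulated response element are shown because the interferon-induced genes moved together. Promoters are the windows around start sites given by RefSeq on build GRCm38.p6, and 13 of the 17 tested members had an entry. GAAA followed by any 2 bases and again GAAA, searched on both strands, occurred in 4 of these 13 (30.8%) and in 1079 of 27025 genes of the table (3.99%). Of the 4, Gbp2 was called lower, while Gbp3, Irgm1 and Ifih1 did not pass, and in Ifih1 the match lay after the start site. Of the named genes called lower with an entry, 3 of 45 (6.67%) held it, and of those called higher, 3 of 28 (10.7%). The last 120 bases before the start site are printed 5′ to 3′ on the gene's strand, with the matched letters in capitals. Gbp2 lies at chr3:142620543-142620662 (plus strand), Gbp3 at chr3:142559924-142560043 (plus strand) and Irgm1 at chr11:48871421-48871540 (minus strand). Tnfsf13b, a cytokine gene described below that was also called lower, lies at chr8:10006513-10006632 (plus strand).
Gbp2: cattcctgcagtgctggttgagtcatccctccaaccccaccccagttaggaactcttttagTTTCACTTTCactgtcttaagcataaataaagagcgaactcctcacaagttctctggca
Gbp3: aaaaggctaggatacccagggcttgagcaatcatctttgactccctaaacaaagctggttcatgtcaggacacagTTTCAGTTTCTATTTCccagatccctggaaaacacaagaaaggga
Irgm1: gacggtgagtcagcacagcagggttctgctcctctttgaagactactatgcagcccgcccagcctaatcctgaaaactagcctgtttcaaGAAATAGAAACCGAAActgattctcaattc
Tnfsf13b: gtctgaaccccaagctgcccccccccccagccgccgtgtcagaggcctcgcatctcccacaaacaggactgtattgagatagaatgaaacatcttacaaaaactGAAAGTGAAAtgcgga
Gbp3 and Irgm1 carry 2 overlapping matches each and Gbp2 a single one, yet Gbp2 differed by -1.25 and Gbp3 by -0.04. A match is a run of letters in the window and says nothing of whether a factor bound there.

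Genes that load and present peptides on major histocompatibility complex (MHC) class I fell in part. Of 8 tested members 3 were lower (background 1.64% of features) and 0 higher: the peptide transporter Tap1 (-0.96 ± 0.14, adjusted p = 0.00028, also a member of the interferon list), and the heavy chain genes H2-Q8 (-0.90 ± 0.12, adjusted p = 7.47e-05) and H2-D1 (-0.81 ± 0.18, adjusted p = 0.0138). H2-Q8 was at 0.32, 0.14, 0.73, 0.73 and 0.60 in control mice and at -0.18, -0.24, -0.41, -0.79 and -0.37 on day 5, so no control mouse was below 0 and no day 5 mouse above it. Class I genes are near-identical copies and a probe may read several of them. The folding helpers Calr (0.33 ± 0.12) and Pdia3 (0.38 ± 0.13) of the same list did not pass. The median of the list was -0.32, and 0.12 over the 4 members measured in all 10 mice, of which 1 was called lower. With arrays scaled to one spread, with the mouse as a random block and with probes tested singly, 1 of the 8 was called higher beside the 3 that were lower.

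B lymphocyte genes were lower at 2 stages. Of the 3 tested genes of B cell precursors 2 passed, both lower, and of 12 genes of mature B cells 4 passed, all lower, beside 1.64% of all features called lower. The medians were -1.11 and -0.77, and no setting gave a member of either list that was higher. Among the mice with under 6000 probes 1 of 3 and 1 of 8 passed.

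Vpreb1 belongs to the surrogate light chain with which precursors test their first antibody heavy chain, and Vpreb3 is the other called gene of the precursor list. Vpreb3 stood at 0.01, 0.30, 0.27, 0.00 and 0.00 in control mice and at -1.45, -2.16, -1.77, -2.37 and -0.28 on day 5 (-1.72 ± 0.28, adjusted p = 0.000508). Day 5 mouse 5 lay closest to control, and without it the difference was larger, the largest in any fit that left out a mouse (-2.05). Vpreb1 differed by -1.11 ± 0.22 (adjusted p = 0.00368), with an overlap between control mouse 4 at -0.16 and day 5 mouse 1 at -0.01. Both genes had been lower on day 2 as well (Vpreb1 by -1.05 and Vpreb3 by -1.51 against control), and the step from day 2 to day 5 did not pass for either (adjusted p = 0.877 and 0.644).

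The mature B cell genes took another course. Ms4a1, which encodes the surface protein CD20, was at -0.28, -0.27, 0.13, -0.12 and -0.26 in control mice and at -3.34, -0.74, -3.46, -0.51 and -1.68 on day 5. The groups did not overlap, but day 5 mice ranged over nearly 3 log2 units (SD 1.40), and the difference of -1.79 ± 0.40 (adjusted p = 0.0121) had adjusted p = 0.0653 when only the 10 mice compared set the spread. Cd22, an inhibitory receptor of B cells, was tighter, at -0.50 to -0.10 in control mice and -1.72 to -0.78 on day 5 (-0.99 ± 0.13, adjusted p = 5.39e-05). Ly6d, a surface protein of B-committed progenitors and B cells, differed by -1.10 ± 0.20 and Syk, a kinase that carries the antigen receptor signal, by -0.55 ± 0.11. Against day 2, 6 of the 12 mature B cell genes were lower on day 5 and 0 higher (background 10.2% of features lower). Cd22 had been higher than control on both earlier days (0.52 on day 1 and 0.38 on day 2), and its step from day 2 to day 5 was -1.37 ± 0.13 (adjusted p = 1.8e-07). Of the others, Pou2af1, a coactivator of antibody genes, and Cd72, a further B cell receptor, did not pass (-1.34 ± 0.39, adjusted p = 0.0758, and -1.13 ± 0.32, adjusted p = 0.0617). Neither did Fcmr (-1.39), Cd37 (-0.18), Tnfrsf13b (-0.17), Blk (-0.05), Ciita (0.18) and Cd52 (0.30), so the list did not fall as a whole.

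Mzb1, which helps antibody assembly in the endoplasmic reticulum of plasma cells and some B cells, was the only 1 of 5 tested plasma cell genes to pass. It read 0.34, 0.43, 0.79, 0.38 and 0.19 in control mice and -1.92, -1.99, -2.08, -1.74 and 0.13 on day 5. In 4 of the day 5 mice it was far below control, and day 5 mouse 5 lay just under the lowest control mouse. The difference was -1.95 ± 0.28 (adjusted p = 0.000185) with that mouse and -2.36 without it. Mzb1 had been lower than control on day 2 already (-1.33 ± 0.30, adjusted p = 0.00413). Its step from day 2 to day 5 did not pass (-0.62 ± 0.30, adjusted p = 0.157). H2-Aa, the alpha chain of an MHC class II molecule of antigen-presenting cells, was the 1 of 5 class II genes to pass, at -0.29 to 0.43 in control mice and -1.87 to -0.64 on day 5 (-1.34 ± 0.18, adjusted p = 5.53e-05). It had risen by 0.74 on day 1. The other 4 class II genes lay between -0.23 and 0.18 and did not pass.

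**Figure D2:**
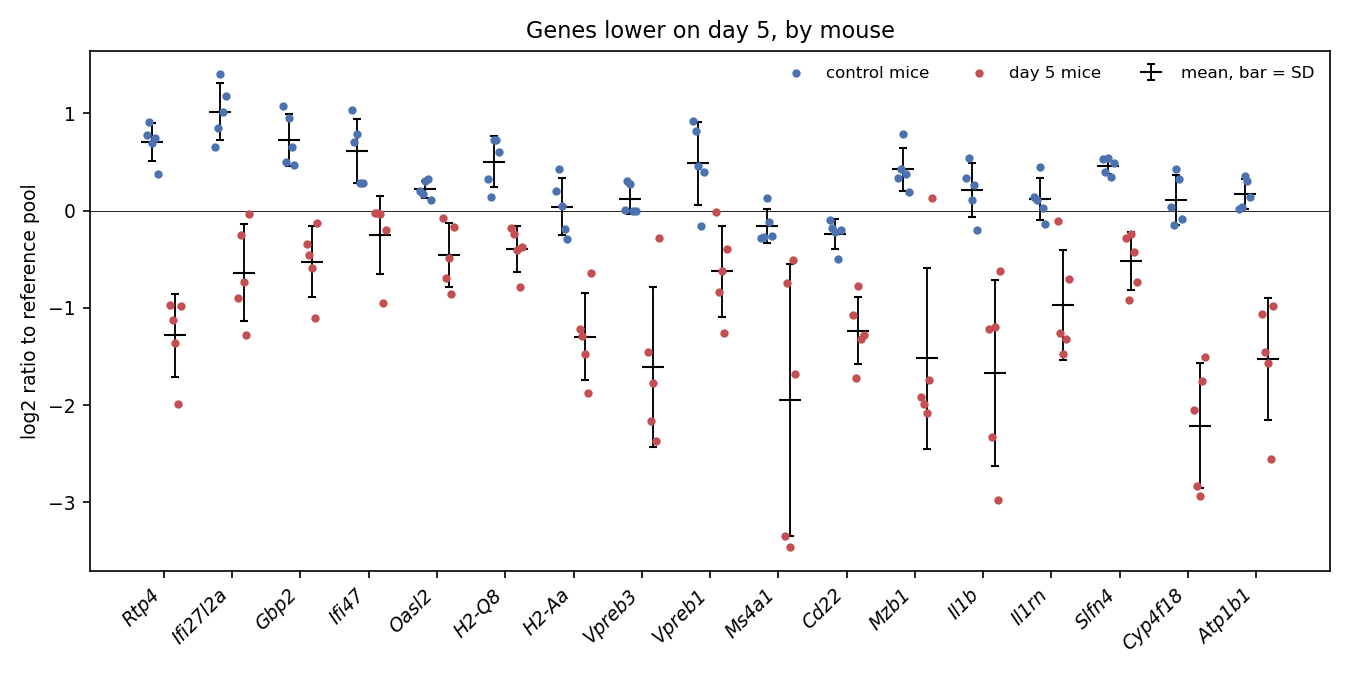
Each point is the mean log2 ratio to the reference pool of 1 mouse (blue control, red day 5), and black marks give the group mean with its SD, for genes called lower on day 5. The groups of Rtp4, Gbp2 and Cyp4f18 lie apart, Vpreb1 and Il1rn overlap, and 1 day 5 mouse of Mzb1 lies near control.

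Genes of myeloid cells moved in both directions. Of 10 tested genes of primary granules and granulocyte precursors 2 were higher and 0 lower (median 0.38), and of 10 monocyte genes 3 were higher and 0 lower (median 0.25). Of 13 genes of mature neutrophils 5 were lower and 1 higher (median -0.09). The share of all features was 0.822% higher and 1.64% lower. With 1 mouse left out the count of risen monocyte genes was 1 without control mouse 5 and 1 without day 5 mouse 3, and among the mice with under 6000 probes it was 1 of 7.

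Prtn3, the protease proteinase 3 that promyelocytes pack into primary granules, was at 0.73, 0.59, 0.60, -0.10 and 0.40 in control mice and at 1.08, 2.34, 1.94, 1.66 and 1.94 on day 5. Every day 5 mouse was above every control mouse, and the difference was 1.35 ± 0.23 (2.55-fold, adjusted p = 0.000955), or 0.87 after quantile normalization. It had been lower than control on day 1 (-1.15, adjusted p = 0.00202) and rose by 1.44 ± 0.24 between day 2 and day 5. Cd63, a membrane protein of primary granules, was higher by 0.55 ± 0.13 without overlap, but leaving out 1 mouse lost the call in 6 of 10 fits (adjusted p 0.0101 to 0.0755). The stem and progenitor marker Prom1 (1.05 ± 0.31, adjusted p = 0.0936) and Plac8 (0.59 ± 0.18, adjusted p = 0.0748) did not pass. Neither did the list members Nkg7 (0.44), Calr (0.33), Gfi1 (0.10), Hp (0.09), Ctsc (0.07) and Rgcc (-0.07). The related granule protease genes Elane and Ctsg could not be tested, having values in 2 and 3 control and 1 and 2 day 5 mice. Cst7, cystatin F, an inhibitor of the lysosomal proteases that activate granule enzymes, was higher by 0.72 ± 0.16 (adjusted p = 0.0121, and 0.0516 without control mouse 4).

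The promoter of Prtn3 is shown because it carried the largest rise among the granule genes. GAGGAAG, a common binding word of the myeloid factor PU.1, was searched on both strands and was present in 4 of 9 primary granule genes with a promoter entry (44.4%), in 8 of 28 named genes called higher (28.6%) and in 15.4% of all genes of the table. The letters were in 1 of 8 monocyte genes (12.5%) and in 2 of 7 mature B cell genes (28.6%), so lists that rose and lists that fell both held them. The stretch lies at chr10:79879547-79879666 (plus strand, GRCm38.p6) and ends at the base before the start site.
Prtn3: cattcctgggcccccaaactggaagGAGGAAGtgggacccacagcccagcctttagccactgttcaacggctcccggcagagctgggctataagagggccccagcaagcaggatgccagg

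F13a1, the A subunit of coagulation factor XIII that monocytes and their precursors make, had the smallest p of the monocyte genes. It stood at -0.20, -0.36, -0.11, -0.26 and 0.01 in control mice and at 0.56, 0.63, 0.90, 0.58 and 0.62 on day 5, a narrow band well above control (0.84 ± 0.11, 1.79-fold, adjusted p = 2.49e-05). On day 1 it had been lower than control by -0.90. Ms4a6c, a membrane protein gene of monocytes, differed by 0.62 ± 0.14 (adjusted p = 0.0148), and by 0.35 after quantile normalization, where the call was lost. Without control mouse 5 its adjusted p was 0.086, and without day 5 mouse 3 it was 0.0523. Emb, embigin, a cell adhesion protein, was higher by 0.52 ± 0.12 in 5 of 5 mice without overlap, but lost the call in 4 of 10 fits that left out a mouse (adjusted p 0.0065 to 0.0699).

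Il1b, the inflammatory cytokine interleukin 1 beta, was at 0.34, 0.54, 0.11, 0.26 and -0.20 in control mice and at -1.22, -2.33, -1.20, -2.98 and -0.62 on day 5 (-1.88 ± 0.30, adjusted p = 0.000508). The gene has 2 probes, and the single probe measured in enough mice gave -2.21. Its natural antagonist Il1rn differed by -1.09 ± 0.21 (adjusted p = 0.00368), with day 5 mouse 1 at -0.11 above the lowest control mouse at -0.14. Slfn4, a schlafen family gene of myeloid cells that interferon also induces, was lower by -0.98 ± 0.20 without overlap. Csf3r, the receptor of granulocyte colony-stimulating factor, differed by -0.57 ± 0.14 without overlap (adjusted p = 0.0241), and 4 of 10 fits without a mouse lost the call, those without control mouse 4 or 5 or day 5 mouse 2 or 3 (adjusted p 0.0252 to 0.0901 over the 10). Ccl6, a chemokine of myeloid cells, had values in only 3 day 5 mice, at -1.42, -1.86 and -0.16, the last of which lay within the control range (-1.15 ± 0.27, adjusted p = 0.0217, and 0.0575 without control mouse 3). Its adjusted p was 0.0569 when only the 10 mice compared set the spread and 0.132 without moderation. Leaving out any of its 3 day 5 mice left too few values to test. Ifitm2, an interferon-induced membrane protein that blocks virus entry, was the member called higher, at 0.10 to 0.74 in control mice and 0.85 to 1.53 on day 5 (0.87 ± 0.20, adjusted p = 0.0129). The 7 neutrophil genes that did not pass lay on both sides of 0. They were Lta4h (0.54), Trem3 (0.46), Fpr2 (0.06), Alox5ap (0.03), Clec4e (-0.02), Cxcr4 (-0.09) and Trem1 (-0.21).

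A pair of related cytokines that keep B cells and plasma cells alive moved apart. Tnfsf13, known as APRIL, was at 0.43, 0.15, 0.35, 0.37 and 0.00 in control mice and at 1.04, 1.39, 1.10, 2.07 and 1.28 on day 5, and every day 5 mouse exceeded every control mouse (1.12 ± 0.15, 2.17-fold, adjusted p = 5.53e-05). On days 1 and 2 it had been lower than control by -0.57 and -0.87, and the step from day 2 to day 5 was 1.99 ± 0.15 (adjusted p = 1.09e-08). Tnfsf13b, known as BAFF, was lower by -0.58 ± 0.13 without overlap (adjusted p = 0.0132, and 0.0523 without day 5 mouse 3). It had been lower by -0.71 on day 2 already. Of the 23 tested cytokines, chemokines and members of the tumour necrosis factor family, Tnfsf13 was the only one called higher, and Il1b, Il1rn, Ccl6 and Tnfsf13b were called lower. The shares of all features were 0.822% higher and 1.64% lower. Cxcl10, an interferon-induced chemokine, and Cxcl12, with which marrow stroma retains stem cells, did not pass (-0.41 ± 0.12, adjusted p = 0.0775, and -0.35 ± 0.31, adjusted p = 0.832).

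**Figure D3:**
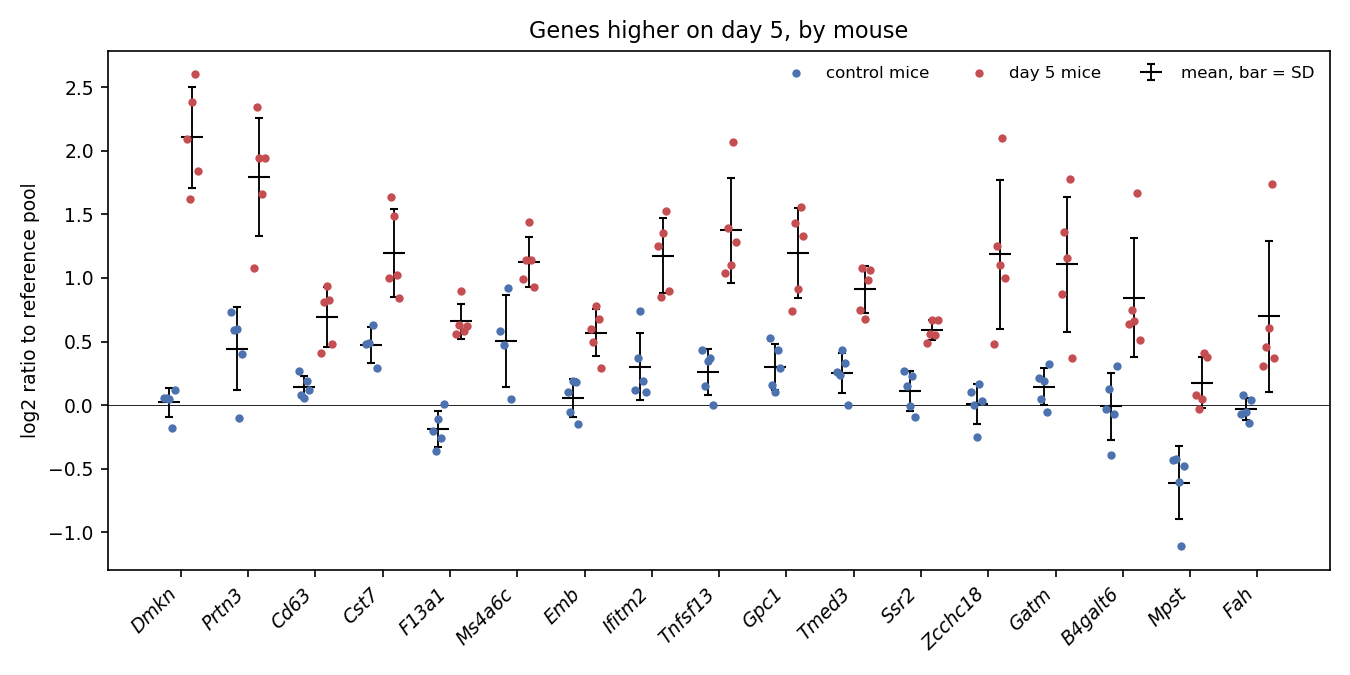
Each point is the mean log2 ratio to the reference pool of 1 mouse (blue control, red day 5), and black marks give the group mean with its SD, for genes called higher on day 5. The groups of Dmkn, Prtn3, F13a1 and Tnfsf13 lie apart, and in B4galt6 and Fah 1 day 5 mouse lies far above the other 4.

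The largest fall and the largest rise among named genes, Cyp4f18 and Dmkn, were in genes outside the lists described above. Cyp4f18, a cytochrome P450 of mouse neutrophils that inactivates leukotriene B4, was at 0.04, -0.15, 0.43, 0.32 and -0.09 in control mice and at -2.05, -2.83, -2.93, -1.75 and -1.50 on day 5. That is a fall of 5-fold (-2.32 ± 0.27, adjusted p = 7.72e-06), and the day 5 mice lay -2.22 ± 0.27 below those of day 2. Atp1b1, a subunit of the sodium-potassium pump, was lower (-1.69 ± 0.20, adjusted p = 8.11e-06), and had been lower by -0.92 on day 2. Plek, pleckstrin, a protein kinase C substrate of platelets and leukocytes, differed by -0.89 ± 0.17 (adjusted p = 0.00362) and was the 1 of 7 tested megakaryocyte genes that passed.

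Dmkn, dermokine, a secreted protein best known from skin, rose most. It was at 0.06, 0.06, 0.05, -0.18 and 0.12 in control mice and at 2.09, 1.62, 2.38, 2.60 and 1.84 on day 5, which is 4.24-fold higher (2.08 ± 0.20, adjusted p = 2.94e-07). It had been higher on day 2 (0.85, adjusted p = 0.00489) and rose further by 1.24 ± 0.20. Zcchc18, a zinc finger gene, was higher by 1.17 ± 0.21 and Gatm, the first enzyme of creatine synthesis, by 0.96 ± 0.17. Gpc1, a heparan sulfate proteoglycan of the cell surface, was higher by 0.89 ± 0.14. In each of these genes the groups did not overlap. B4galt6, which makes lactosylceramide, was higher by 0.86 (called), with day 5 mouse 4 at 1.67 and the other 4 day 5 mice at 0.51 to 0.75, and without that mouse the difference was 0.65. Ssr2, a subunit of the translocon-associated complex at the endoplasmic reticulum, was higher by 0.48 ± 0.10 (adjusted p = 0.00933). Tmed3, which sorts cargo for the Golgi, was higher by 0.66 ± 0.16 (adjusted p = 0.0224), and lost the call without control mouse 5 (0.0783), day 5 mouse 2 (0.0671) or day 5 mouse 4 (0.0528).

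**Figure D4:**
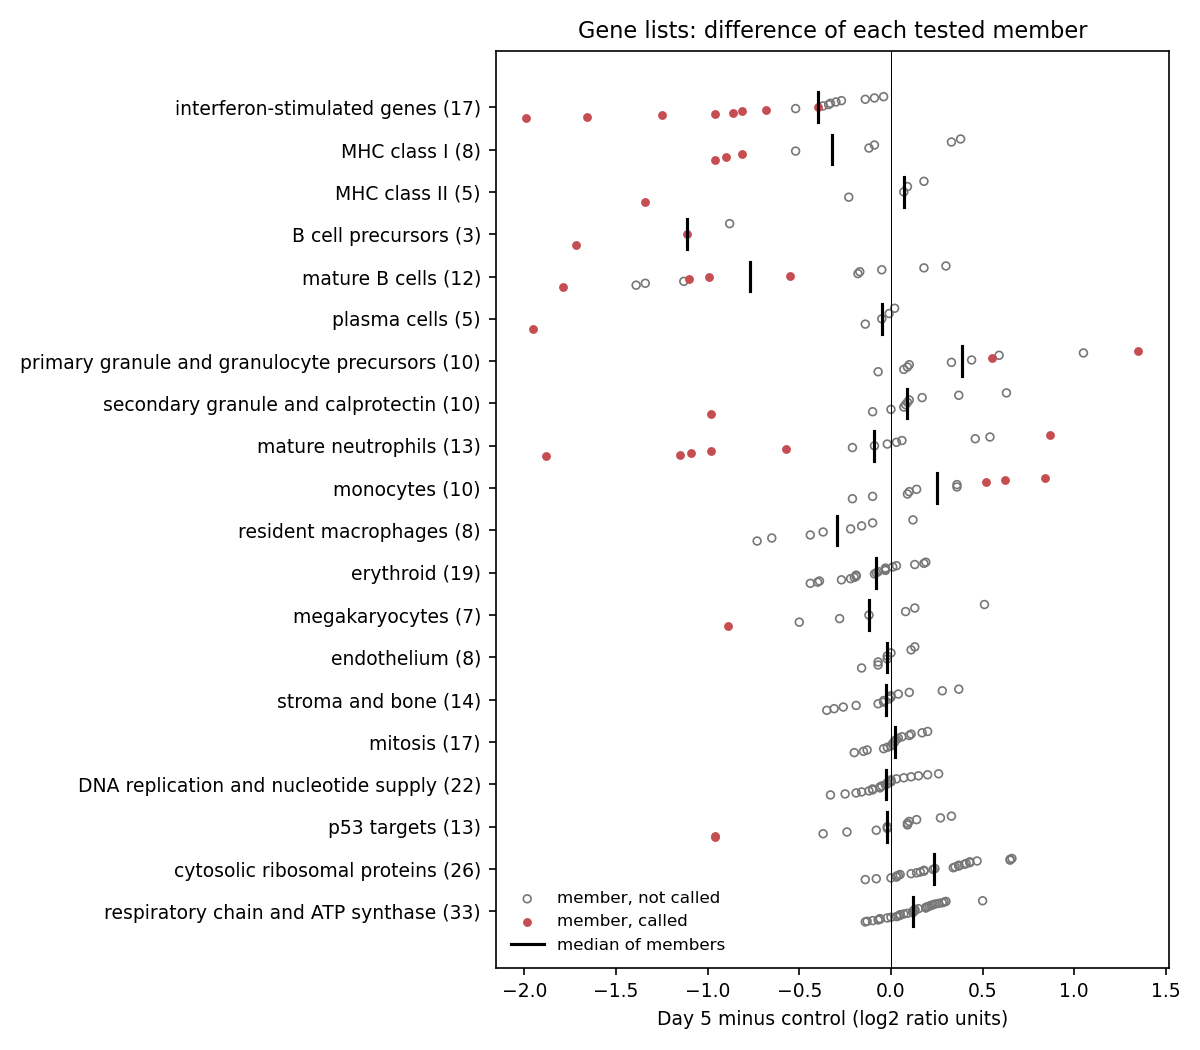
Each point is the day 5 minus control difference (log2 units) of 1 tested member of a gene list, red where called, and a black bar is the median of the members. Numbers in brackets are tested members. Interferon-stimulated genes lie to the left of 0 in 17 of 17 cases, while members of the mitosis list lie between -0.20 and 0.20.

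Several processes that differed from control on day 2 gave few or no called genes against control on day 5. Of 17 tested mitosis genes 0 passed on day 5 (limma, with 0 at an unadjusted p under 0.05 and 0 called without moderation), and the differences ran from -0.20 to 0.20. On day 2, 11 of the 17 had been lower (background 9.37% of features lower), and between day 2 and day 5, 11 were higher and 0 lower (background 10.1% higher). Nuf2, a kinetochore protein, was 0.96 ± 0.12 higher on day 5 than on day 2 and 0.20 ± 0.12 above control. Secondary granule genes, made by maturing neutrophils, were lower for 9 of 10 members on day 2 and were higher for 9 of 10 between day 2 and day 5. Ltf, lactoferrin, was at -2.30 to -1.65 on day 2 and at -0.12 to 0.66 on day 5, where it did not pass against control (0.17 ± 0.19, adjusted p = 0.883). Mmp9, a gelatinase stored in late granules, was the 1 of the 10 that passed against control, and it was lower (-0.98 ± 0.26, adjusted p = 0.0396). That call rested on 4 day 5 mice, of which mouse 5 at 0.23 lay inside the control range. The call was lost in 7 of 10 fits that left out a mouse (adjusted p 0.000745 to 0.194). Without control mouse 4 it was lost (adjusted p = 0.0886). Without day 5 mouse 5 it was kept, with the largest difference of these fits (-1.32).

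Resident macrophage genes went the other way between the days. On day 2, 7 of 8 had been higher than control (background 9.32% of features higher), and between day 2 and day 5, 7 were lower and 0 higher. Against control 0 of 8 passed on day 5 (limma, with 4 at an unadjusted p under 0.05 and 0 called without moderation), and the median was -0.30. In each of 3 alternatives 1 of the 8 was called lower: C1qa, a further chain of complement C1q, with only the 10 mice compared (-0.65, adjusted p = 0.0453) and among the mice with under 6000 probes (-0.70, adjusted p = 0.047), and Adgre1 with the mouse as a random block (-0.37, adjusted p = 0.0429). C1qb, a chain of complement C1q made by macrophages, differed by -0.73 ± 0.31 (adjusted p = 0.342), and the groups overlapped: control mouse 4 at -0.91 lay among the day 5 mice, and day 5 mouse 5 at -0.14 lay above the other 4 and within the control range. Adgre1, a surface receptor widely used as a macrophage marker, differed by -0.37 ± 0.12 (adjusted p = 0.135) from control and by -1.09 ± 0.12 from day 2. For Cdkn1a, the p53-induced cell cycle inhibitor p21, the difference of 1.69 on day 2 compared with 0.27 ± 0.26 on day 5 (adjusted p = 0.853). Of 13 p53 targets 0 were higher on day 5 and 2 lower, beside 0.822% and 1.64% of all features. The 2 were Trp53inp1 (-0.96 ± 0.17, adjusted p = 0.00278) and Tap1, already counted in the interferon and class I lists.

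Red cell genes had 0 called members of 19 (limma, 1 at an unadjusted p under 0.05 and 0 called without moderation), with a median of -0.08. In the same way 0 were called of 8 endothelial, 14 stromal and bone, 22 DNA replication, 12 DNA repair and 33 respiratory chain genes, with 0, 0, 1, 0 and 2 at an unadjusted p under 0.05 and 0 called in each without moderation. Of 26 cytosolic ribosomal protein genes 0 were called (3 at an unadjusted p under 0.05, 0 without moderation), although 23 lay above 0 and the median was 0.23, and it lay between 0.06 and 0.34 in all alternative settings. Rps13, of the small ribosomal subunit, missed the threshold (0.65 ± 0.18, adjusted p = 0.0586) and was called higher with arrays scaled to one spread (adjusted p = 0.0227), after quantile normalization (0.0242) and without day 5 mouse 3 (0.0153). On 4 control and 0 day 5 arrays its value was one that many probes of that array shared. In all, 17 of the 37 lists had 0 called members. The median standard error of a feature was 0.135 log2 units, so small differences were not detectable.

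Changes that ran one way early and the opposite way on day 5 were found in 14 of the named genes. Their day 5 value, their earlier value and the step between the days each passed the test. Il1b, H2-Aa, Cd22, Slfn4, Oasl2 and Csf3r had been higher than control on day 1 (background 10.7% of features higher), Il1b by 0.92 ± 0.30 and Slfn4 by 0.81 ± 0.20, and were lower on day 5. Prtn3, F13a1, Ms4a6c, Tnfsf13, Gpc1, Tmed3, Cd63 and Ssr2 had been lower on day 1 (background 8.28% of features lower), Tmed3 by -0.61 and Gpc1 by -0.44, and were higher on day 5. The comparisons with control share the 5 control mice.

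**Figure D5:**
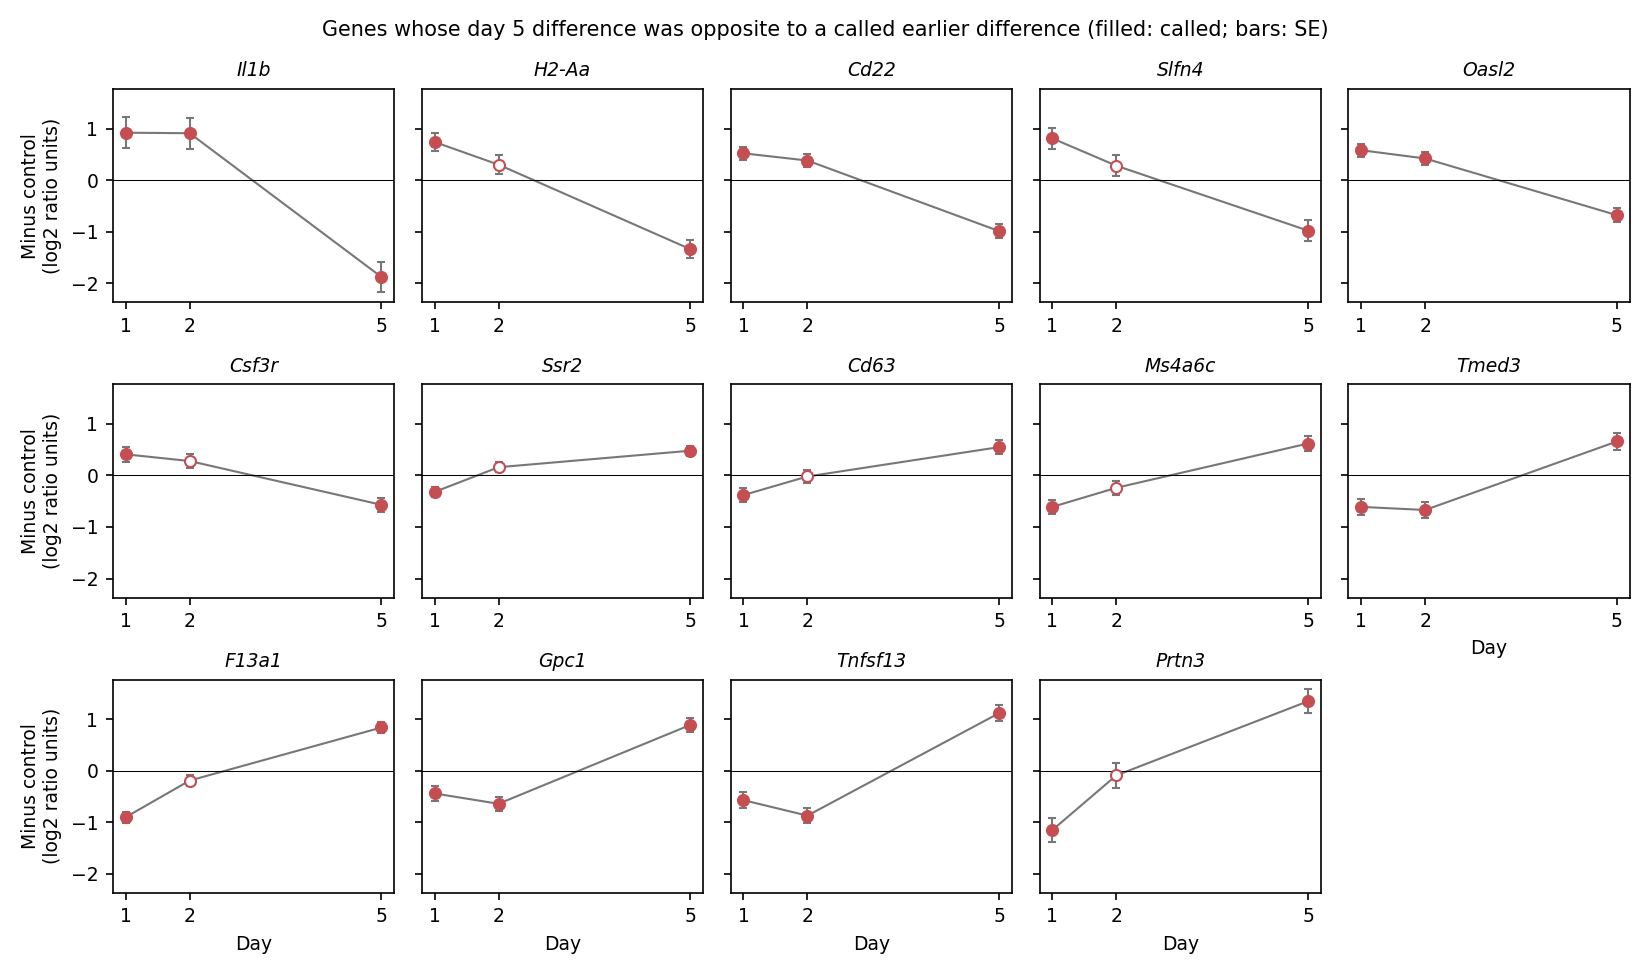
Each panel gives 1 gene's difference from control in log2 units on days 1, 2 and 5, with the SE of the fit as bars and filled points where the difference was called. In the 6 genes from Il1b to Csf3r the line falls from above 0 to below it, and in the other 8 it rises from below 0 to above it.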

How the data were processed

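Bone marrow RNA of 20 DBA/2 mice in 4 groups of 5 was labelled with Cy5, each mouse on 2 arrays, against a common Cy3 pool. The values are log ratios as deposited by the authors in the series matrix, read here as log2. The sources used here do not give the log base, the scanner, the normalization or the rule for blank values. The 2 arrays of a mouse were averaged, then probes of 1 gene, giving 13027 features from 13443 probes, of which 10032 had 1 symbol, 170 several and 3241 no entry in the platform annotation. Between 4079 and 7977 probes had a value per array in the 2 groups. On 27 of the 40 arrays many probes shared the same value within 0.001, which made up 573 values. With these left out 136 features were called, including the 135 given above. These ratios carry no read depth, so the number of mice and the blanks limit precision.

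A group-mean model over all 20 mice was fitted with limma 3.58.1 (R 4.3.3), with moderated variances and Benjamini-Hochberg adjustment over all features; features with values in at least 3 mice of both groups were tested and an adjusted p under 0.05 was called. All p-values in the text are from this fit unless said otherwise. They measure the spread between mice. The script was tested on simulated data.

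The comparison, the genes and the 37 gene lists were chosen with earlier results of these data known. Named were the 20 largest rises and the 20 largest falls among called genes with all measured day 5 mice on one side of the control mean, the called members of each list (or the member with the smallest p) and a fixed set of genes. Gbp3, Irgm1, Ifih1, Mx2, Calr, Pdia3, Pou2af1, Cd72, Prom1, Plac8, Cxcl10, Il18bp and the unnamed probe were named after their values were seen. Apart from Nkg7, so were the other uncalled members given for the mature B cell, primary granule and mature neutrophil lists. Alternatives covered the filter, the normalization, the model and leaving out each mouse; those by number of probes measured were added after seeing the data. Promoter sequences came from RefSeq, build GRCm38.p6. Figures were drawn with matplotlib 3.10.9.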

Additional observations from a re-analysis of the deposited data

Results flagged for a closer look

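In groups of 4 or 5 mice, the mouse at either end was set against the nearest of the others by Dixon's ratio. Of 162 groups examined 20 had a mouse standing apart, where chance gives about 1 in 20. Day 5 mouse 4 was the one apart in 8 of the genes below. It was the highest for Fah at 1.74 (next 0.61), B4galt6 at 1.67 (next 0.75), Schip1 at 1.35 (next 0.42), Aldoa at 1.13 (next 0.61) and Cdh11 at 0.38 (next -0.04). It was the lowest for Ifi47 at -0.95 (next -0.20), Cad at -0.81 (next -0.18) and Irf9 at -0.52 (next -0.27). This mouse also had the widest spread of log ratios of the 10 mice (SD 0.468); its part in these values was not tested.

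Day 5 mouse 5 was the highest for Mzb1 at 0.13 (next -1.74), C1qb at -0.14 (next -0.85) and C1qa at -0.13 (next -0.76). Its 2 arrays correlated at 0.683, the lowest of the 20 mice. Control mouse 4 was the lowest for C1qb at -0.91 (next 0.09), Mpst at -1.11 (next -0.60) and Dmkn at -0.18 (next 0.05). Control mouse 3 stood apart for Aldoa at 0.68 and Lamp1 at -0.20, and control mouse 5 for Alas2 at -0.93. Day 5 mouse 3 was the highest for H2ax at 0.51 and F13a1 at 0.90, and day 5 mouse 1 the lowest for Nkg7 at 0.33.

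In 14 genes the day 5 difference from control had the opposite sign to a called difference on an earlier day, and the step between the days passed limma's test. The day 5 differences were -1.88 for Il1b, -1.34 for H2-Aa, -0.99 for Cd22, -0.98 for Slfn4, -0.68 for Oasl2 and -0.57 for Csf3r. They were 0.48 for Ssr2, 0.55 for Cd63, 0.62 for Ms4a6c, 0.66 for Tmed3, 0.84 for F13a1, 0.89 for Gpc1, 1.12 for Tnfsf13 and 1.35 for Prtn3.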

How the results depend on the processing

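For genes called, day 5 against control, and genes called higher, day 5 against control, the counts of 135 and 45 became 227 (92 higher) with arrays scaled to one spread, 214 (90 higher) with all arrays and the mouse as a random block, 187 after quantile normalization and 100 without moderation; all 135 were among the 227, 125 among the 214. Among mice with under 6000 probes measured, an alternative added after seeing the data that keeps 6 of 10 mice and tests 3800 features, 83 were called (16 higher), with 27 of the 55 called named genes and 24 calls over the lists against 37. Leaving out each mouse gave 100 to 162 calls, 22 to 55 higher and 71 to 108 lower, 44 to 53 named genes and 31 to 41 calls over the lists. It gave 807 to 1111 calls for day 5 against day 2 and 972 to 1575 against day 1. Same-numbered mice did not deviate together (correlations -0.088 to -0.002 over 2979 features), which cannot settle whether the numbers pair them. A fit with the replicate block called 125, of which 113 were shared with the 135. Of the 55 called named genes 23 kept the call in every alternative that tested them and 32 lost it in at least 1; none changed sign. Of those not called, 5 (C1qa, Adgre1, Nkg7, Itga2b and Rps13) were called in at least 1 alternative. Cd177, not called, gave -0.001 without day 5 replicate 1 and up to 0.135 without day 5 replicate 4. Hba-a1, not called, gave 0.053 in mice with under 6000 probes measured. The cause of these sign changes was not tested. On 7 control and 6 day 5 arrays the value of Hba-a1 was one shared by many probes, so its difference says little. With longer letters of the interferon response element the share of promoters was 23.1% (0.303% of all genes) against 30.8% (3.99% of all genes) with the core letters. No depth is available for these ratios; blanks left 5473 of 13027 features to test.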

Other observations

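Some of the widest differences belonged to probes with no gene name in the platform annotation. The largest fall of all, chosen after its values were seen, was an unnamed probe at -0.22, -0.28, 0.08, 0.01 and -0.16 in control mice and at -3.06, -2.95, -3.32, -3.65 and -2.53 on day 5 (limma adjusted p = 6.25e-10). Of 1415 unnamed probes tested 41 were called, where 2.47% of all features were. The calls were unevenly spread over probe IDs: in 4 consecutive ID blocks, chosen after the values were seen and holding the probe above, 20 of 171 unnamed probes were called (11.7%, 18 of them lower), against 21 of 1244 (1.69%) elsewhere.

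Presence of a value was itself unequal. There were 205 features with a value in at least 4 control mice and in at most 1 day 5 mouse, and 2 features the other way round. These features could not be tested, and the sources used here do not give the rule for blank values. Fewer than 6000 probes were measured in 4 day 5 and 2 control mice, and the part of this imbalance in the 205 against 2 was not tested.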
